A study of Mus musculus with 191 samples.

Results

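Adipoq, Retn, Cfd, Lep, Plin1, Cidec, Cidea, Ucp1 and Pck1 were followed in lung RNA as genes used in fat cells. They were taken by name, and a probe set counted for a gene only where the array's annotation gave it no other symbol. Of the 9 genes, 7 had such a probe set and 6 passed the filter on dim genes (at least 3 arrays above the median of all values), out of 18194 genes with a probe set and 13524 that passed. Plin1 and Cfd are named only. Lep lay above that median on 0 arrays and was not tested, and Ucp1 passed on 16 arrays, against 101 for Pck1, 168 for Adipoq, 179 for Cidea, 188 for Cidec and every array for Retn.

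Fat cells store triglyceride in lipid droplets, release hormones and, in brown fat, burn fuel to make heat. Adipoq (adiponectin), Retn (resistin) and Lep (leptin) are fat cell hormones, and Cfd (adipsin) is a secreted complement factor of fat. Plin1 and Cidec coat or fuse lipid droplets, Cidea does so in brown fat and in white fat that turns brown, Ucp1 uncouples mitochondrial respiration to give heat, and Pck1 makes the glycerol backbone of stored fat but also glucose in liver and kidney. Lung itself is not a fat store, but fat lies around its hilum and in the mediastinum, so a lung sample can hold some. In such bulk RNA, fewer cells of a type and less RNA per cell cannot be told apart.

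The RNA came from the right lobe of lungs of B6C3F1 females, hybrid mice common in cancer bioassays, aged 18 weeks after 13 weeks of exposure. It was read on Affymetrix mouse arrays. Each array came from an animal whose number differs from all others in its array batch, though some numbers recur between batches. The 133 exposed arrays formed 34 groups for 26 chemicals and the 58 control arrays 14 sets, in 4 array batches named by a code in the array titles whose meaning is not given. With 3 to 5 arrays a group, precision is limited. By inhalation the mice received Naphthalene at 0.5, 3, 10, 20 and 30 ppm, Methylene Chloride at 100, 500, 2000, 3000 and 4000 ppm, Propylene glycol mono-t-butyl ether at 1200 ppm, Vanadium Pentoxide at 2 mg/m3, Ethylene Oxide at 100 ppm, Tetrafluororethane at 50000 ppm or Tetrafluoroethylene at 1250 ppm. By gavage in corn oil they received Coumarin at 200 mg/kg, Benzene at 100, 1,2-Dibromoethane at 62, 1,4-Dichlorobenzene at 600, 1,2,3-Trichloropropane at 60, Iodoform at 93, Trichlorofluoromethane at 3925 or 2,3-Benzofuran at 240 mg/kg, and in distilled water 2-Chloromethylpyridine hydrochloride at 250 or N-Methylolacrylamide at 50 mg/kg. In chow they received 1-Amino-2,4-dibromoanthraquinone at 20000 ppm, Tris(2,3-dibromopropyl)phosphate at 1000, 1,5-Naphthalenediamine at 2000, N-(1-naphthyl)ethylenediamine dihydrochloride at 2000, Pentachloronitrobenzene at 8187, 2,2-Bis(bromomethyl)-1,3-propanediol at 1250, Diazinon at 200, Malathion at 14800 or 4-Nitroanthranilic acid at 10000 ppm. Controls received air, corn oil, distilled water or plain chow.

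Promoters were read from RefSeq (GRCm38.p6, 250 bases before to 50 after the start) for the pair of genes that moved together most closely across control arrays, Adipoq and Retn, and the pair that did so least, Ucp1 and Pck1. An entry was found for 8 of the 9 genes. Capitals mark the motifs found: CCAAT in Adipoq (ATTGG on the other strand), AGGTCA, the core site of nuclear receptors, in Ucp1, and ACGTCA, the core of the cAMP response element, in Pck1.
Adipoq, chr16:23146286-23146585, + strand: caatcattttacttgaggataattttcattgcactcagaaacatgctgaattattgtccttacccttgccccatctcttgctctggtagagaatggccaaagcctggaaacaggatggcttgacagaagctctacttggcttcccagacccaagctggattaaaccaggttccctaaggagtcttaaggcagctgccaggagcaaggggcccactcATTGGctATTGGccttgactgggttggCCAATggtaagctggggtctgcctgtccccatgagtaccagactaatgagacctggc
Retn, chr8:3655520-3655819, + strand: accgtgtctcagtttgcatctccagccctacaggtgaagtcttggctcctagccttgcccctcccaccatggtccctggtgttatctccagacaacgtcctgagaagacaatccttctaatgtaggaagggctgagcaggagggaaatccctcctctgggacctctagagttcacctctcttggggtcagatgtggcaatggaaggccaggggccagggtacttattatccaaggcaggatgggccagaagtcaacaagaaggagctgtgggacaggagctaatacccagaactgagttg
Ucp1, chr8:83290098-83290397, + strand: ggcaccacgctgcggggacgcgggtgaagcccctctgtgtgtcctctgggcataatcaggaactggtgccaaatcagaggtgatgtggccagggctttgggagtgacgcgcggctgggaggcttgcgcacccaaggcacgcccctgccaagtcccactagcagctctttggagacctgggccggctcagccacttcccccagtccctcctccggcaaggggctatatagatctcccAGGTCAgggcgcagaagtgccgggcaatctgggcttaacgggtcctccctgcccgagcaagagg
Pck1, chr2:173152823-173153122, + strand: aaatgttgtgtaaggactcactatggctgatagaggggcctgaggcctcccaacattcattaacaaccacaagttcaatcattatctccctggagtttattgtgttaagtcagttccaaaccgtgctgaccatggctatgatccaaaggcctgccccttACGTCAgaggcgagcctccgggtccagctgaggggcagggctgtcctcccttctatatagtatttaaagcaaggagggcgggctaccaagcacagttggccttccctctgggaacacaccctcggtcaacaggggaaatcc
Adipoq held CCAAT at positions -34, -27 and -7 from the start, a motif found on either strand in 37.4% of 32851 promoters of this length. AGGTCA in Ucp1 lay at -14 (16.3% of promoters hold it) and ACGTCA in Pck1 at -91 (7.51%). None of these motifs was in the Retn window, and neither TATAAA (13.6%) nor AGGTCA repeated after 1 base (0.0396%), which PPAR gamma, the master regulator of fat cells, binds with its partner, was in any of the 8 genes' windows. A match is a run of letters and not a shown binding site. The genes lie on several chromosomes, Adipoq at chr16:23146536-23157968, Cidec at chr6:113424634-113435760, Pck1 at chr2:173153073-173159274, and Retn (chr8:3655770-3659818) and Ucp1 (chr8:83290348-83298456) far apart on chromosome 8.

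Values are on the deposited log scale, taken as log2, centred near 0 on every array. Adipoq ran from -1.91 through a median of 0.65 to 2.27 in the 133 exposed arrays and from -1.56 through 0.75 to 2.98 in the 58 control arrays. Retn ran from -0.25 through 0.68 to 1.70 in exposed arrays and from -0.13 through 0.66 to 2.55 in control arrays. The ranges of exposed and control arrays overlapped almost wholly for both hormones, and the control arrays held the highest value.

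Among the lipid droplet genes, Cidec ran from -0.46 through 0.04 to 0.61 in exposed arrays and from -0.28 through 0.12 to 1.68 in control arrays. Cidea ran from -0.96 through -0.02 to 1.14 in exposed arrays and from -0.82 through -0.03 to 2.17 in control arrays. Ucp1 was dim in most mice, from -1.32 through -0.74 to 0.45 in exposed arrays and from -1.36 through -0.68 to 2.54 in control arrays. Pck1 ran from -1.31 through -0.39 to 1.00 in exposed arrays and from -1.20 through -0.27 to 0.99 in control arrays. Lep stayed between -1.11 and -0.48 in exposed arrays and between -1.08 and -0.49 in control arrays. Levels of different genes come from different probe sets and are not set against each other. Markers of the labelled tissue were bright: 10 of 10 lung epithelial genes lay above the median of all values on all arrays, with Sftpc, the surfactant protein C gene, between 6.20 and 7.45. That rule is not particular to lung. It was met by 19 of 27 white adipose and lipid storage, 6 of 11 heart muscle and 5 of 6 macrophage genes, but by 0 of 10 skeletal muscle and 0 of 7 thymus genes.

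**Figure D1:**
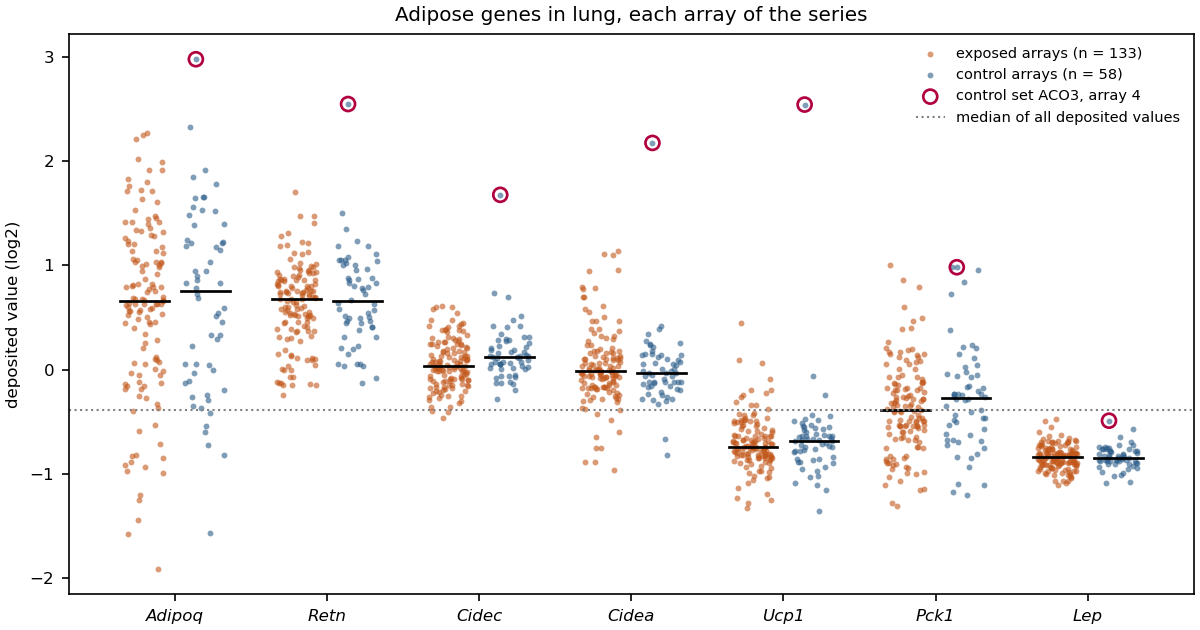
Deposited log2 value (vertical axis) of each array for the 6 tested genes and Lep, exposed arrays left and control arrays right, with ACO3 replicate 4 ringed, group medians as bars and the median of all values dotted. Exposed and control arrays overlap for every gene, and the ringed control array has the highest value for Adipoq (2.98), Cidea (2.17), Cidec (1.68), Ucp1 (2.54) and Retn (2.55).

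1 air control array stood apart. ACO3, ACO4 and ACO5 are the 3 air sets of one batch, and ACO3 replicate 4 had the highest value of all arrays for 5 of the 6 tested genes. Its Adipoq value of 2.98 compared with 2.33 on the next array, Cidea 2.17 with 1.14, Cidec 1.68 with 0.73, Ucp1 2.54 with 0.45 and Retn 2.55 with 1.70. Pck1 (0.98) and Lep (-0.49) were among its high genes too, with 2 and 1 arrays above it. Its mean over 25 tested white adipose and lipid storage genes was the highest of all arrays (2.69, next 2.19), as was its mean over 11 heart muscle genes, which in mice also mark the muscle sleeve of the pulmonary veins (3.04, next 2.97). The mean over 11 brown adipose genes was 1.41 (next 1.40), and that over the 10 lung epithelial genes was 5.15, against a highest of 5.79 elsewhere. Its labelled RNA integrity number was 9.1. The other 3 ACO3 arrays were low: Adipoq was -1.56, -0.72 and 0.04, Cidea -0.82, -0.67 and -0.30, and Ucp1 -1.36, -1.10 and -1.02. ACO3 thus held both extremes, so results that turn on comparison with air in that batch are also given without replicate 4.

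Over all 34 exposed groups the 6 genes were tested 204 times and called 4 times, 2 up and 2 down. A call needed a limma Benjamini-Hochberg adjusted p under 0.05, with the same sign, against each control set that shared vehicle and batch, and 2.58% of 459816 tests of all genes passed it (1.86% up, 0.722% down). All 4 calls were Cidea, which rose with naphthalene at 20 and 30 ppm and fell with propylene glycol mono-t-butyl ether and vanadium pentoxide. At an unadjusted p under 0.05 against every set, 11 of the 204 passed (5.39%), beside 12.2% of all tests. Set against the plain mean of those control sets alone, 12 of 204 were called, against 6.32% of all tests. Of these 12, 4 were up, Cidea with coumarin and with naphthalene at 10, 20 and 30 ppm, and 8 were down, Adipoq, Retn, Cidea and Ucp1 with propylene glycol mono-t-butyl ether and with vanadium pentoxide. Without ACO3 replicate 4 the calls against every control set were 5, all up, and 2.51% of all tests passed. Against the plain mean there were then 14 calls of 204, 7 up and 7 down. The share of all tests for this rule was taken only with all arrays kept (6.32%).

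**Figure D2:**
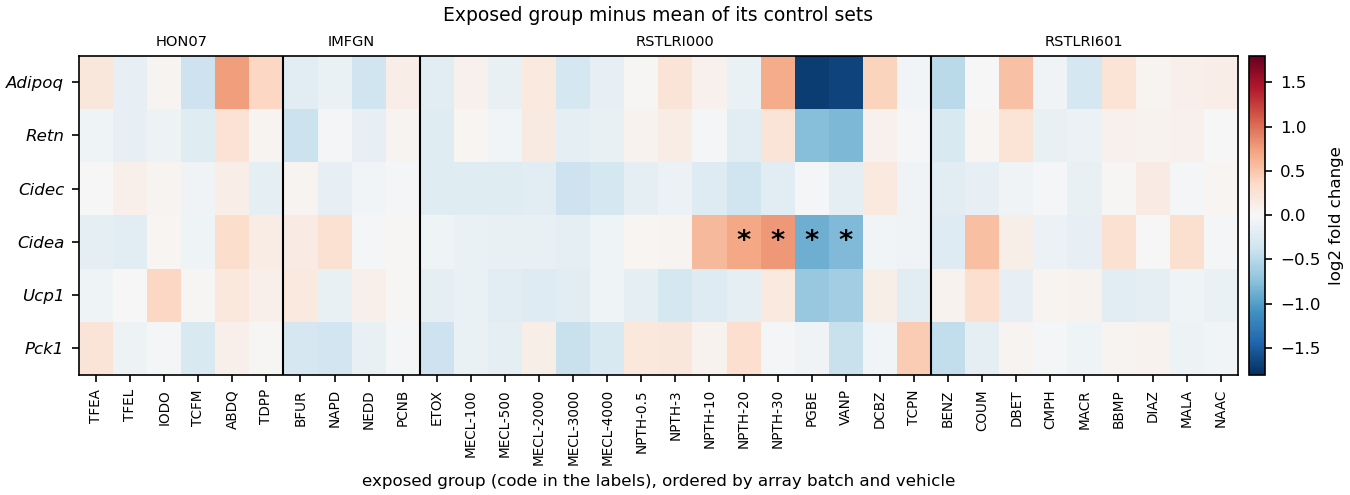
Log2 fold change (colour) of the 6 tested genes (rows) in each of the 34 exposed groups (columns, by the labels' codes, with NPTH naphthalene, PGBE propylene glycol mono-t-butyl ether and VANP vanadium pentoxide) against the mean of its control sets, with a star at each of the 4 calls. The stars lie in the Cidea row only, and the blue fields of Adipoq, Retn and Ucp1 are deepest for propylene glycol mono-t-butyl ether and vanadium pentoxide.

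Cidea was higher at the upper naphthalene concentrations, where most arrays lay above all air controls but ACO3 replicate 4. In the 14 air control arrays of the batch it ran from -0.82 through a median of 0.07 to 2.17. It was 0.10, 0.04, 0.11 and 0.32 at 0.5 ppm and 0.06, 0.30, 0.13 and 0.16 at 3 ppm, within the air controls. It was 0.58, 0.79, 0.79 and 0.61 at 10 ppm, 1.10, 0.69, 0.94 and 0.47 at 20 ppm, and 0.33, 1.10, 0.96 and 1.14 at 30 ppm. Of these 12 arrays 11 lay above 0.34, the highest of the 13 air controls other than ACO3 replicate 4. The log2 fold changes were 0.04 at 0.5 ppm, 0.06 at 3 ppm and 0.59 ± 0.16 (SE, adjusted p = 0.106, limma) at 10 ppm, none called. Cidea rose by 0.70 ± 0.16 at 20 ppm (1.62-fold, adjusted p = 0.0153, limma) and by 0.78 ± 0.16 at 30 ppm (1.71-fold, adjusted p = 0.00432), where 1.12% and 1.58% of all genes were called up. The calls rest on few arrays: without ACO3 replicate 1 (RNA integrity number 6.1), 2 or 3 neither held, and that at 20 ppm was also lost without its own replicate 1 or 3 or ACO4 replicate 5. Without ACO3 replicate 4 the fold changes were 0.82 at 10 ppm (adjusted p = 0.00282), 0.93 at 20 ppm (7.6e-05) and 1.01 at 30 ppm (3.41e-06), all called by limma, where 0.355%, 1.03% and 1.51% of all genes were called up. Those at 0.5 and 3 ppm were then 0.27 (adjusted p = 0.981, limma) and 0.29 (0.999), not called. Fitted on the arrays of each contrast alone, Cidea was not called at 20 ppm (adjusted p = 0.372, limma) or 30 ppm (0.482).

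Within the naphthalene series alone, which uses no control array, Cidea rose with concentration by a fitted 0.78 ± 0.14 (SE, n = 20) over the range from 0.5 to 30 ppm (adjusted p = 0.000195, limma). Ucp1 rose by 0.37 ± 0.11 (adjusted p = 0.0143). These were 2 of 6 genes, in a series where 40.8% of 13524 genes passed (9.08% up, 31.7% down). At 30 ppm Ucp1 was -0.70, -0.49, -0.09 and -0.20, and at 0.5 ppm it was -0.85, -0.85, -0.89 and -0.23, so the groups overlapped through 1 array at 0.5 ppm. The Ucp1 trend was not called on the log10 of concentration (0.23, adjusted p = 0.167), with air controls added at 0 ppm (0.14, adjusted p = 0.737), or without replicate 3 or 4 of the 30 ppm group. With air controls added but ACO3 replicate 4 left out it was 0.34 (adjusted p = 0.0115). Adipoq changed by 0.39 ± 0.33 (adjusted p = 0.366), Retn by 0.03, Cidec by -0.11 and Pck1 by -0.13, none called. At 30 ppm Adipoq was -0.16, 1.39, 1.91 and 1.99, and the last 2 of these arrays lay above 1.84, the highest air control other than ACO3 replicate 4. Methylene chloride gave 0 of 6 calls by limma in its series (n = 21, 0 at an unadjusted p under 0.05), where 42.2% of all genes passed, with changes between -0.22 and 0.02.

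Scd1 and Sncg, among the other fat genes, rose with naphthalene at both 20 and 30 ppm. Of 25 tested genes of the white adipose and lipid storage list, limma called 2 up and 0 down at 20 ppm and 3 up and 0 down at 30 ppm, beside 1.12% and 1.58% of all genes called up. Scd1, which desaturates stearate, rose by 0.64 ± 0.12 at 20 ppm (adjusted p = 0.00394) and 0.82 ± 0.12 at 30 ppm (3.77e-05). Sncg, gamma-synuclein of neurons and fat cells, rose by 0.68 ± 0.07 at 20 ppm and 0.67 ± 0.07 at 30 ppm (1.65e-09 and 1.45e-09). Fasn, fatty acid synthase, rose at 30 ppm by 0.77 ± 0.14 (adjusted p = 0.00493, limma). All of these calls held without ACO3 replicate 4, with Scd1 at 0.69 and 0.87, Sncg at 0.70 and 0.69 and Fasn at 0.89. The median of the list was -0.06 at 20 ppm and 0.07 at 30 ppm, beside -0.06 and -0.05 over all genes. None of 11 brown adipose genes, 8 PPAR target and fasting genes or 11 heart muscle genes was called by limma at 20 or 30 ppm, and 1 of these, a brown adipose gene at 20 ppm, passed an unadjusted p under 0.05, beside 9.43% of all genes at 20 ppm and 7.46% at 30 ppm. The ciliated cell regulator Foxj1 of the lung epithelium list rose at 10 ppm (0.71 ± 0.13, adjusted p = 0.022, limma) and 20 ppm (0.61 ± 0.13, adjusted p = 0.0414), calls lost without ACO3 replicate 4 (0.70, adjusted p = 0.0729, and 0.61, adjusted p = 0.0822, limma). Its part in the Cidea result was not tested.

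**Figure D3:**
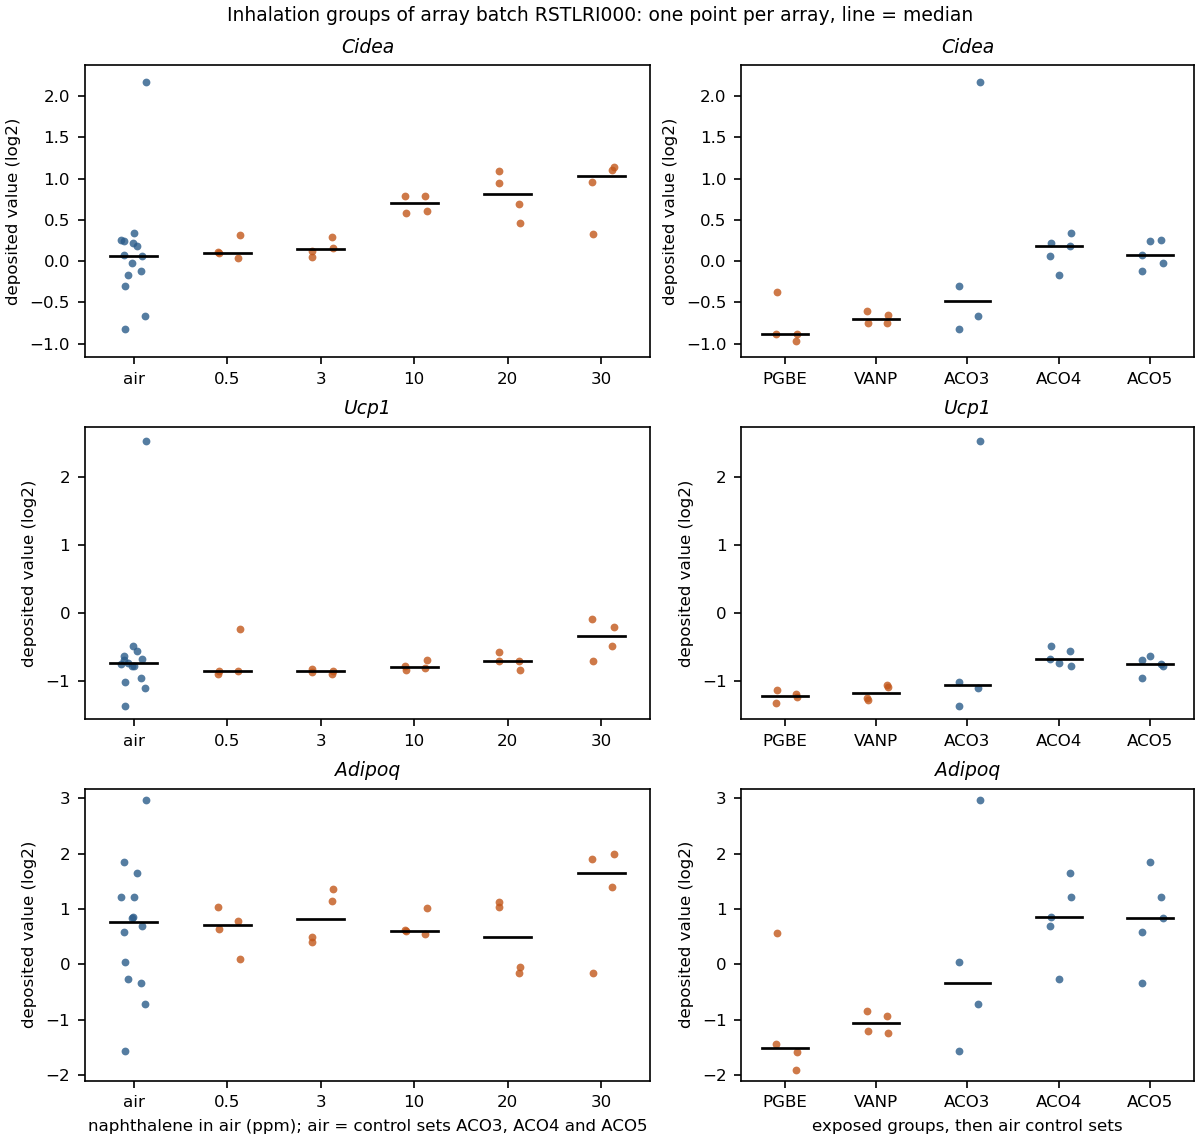
Log2 values per array of Cidea, Ucp1 and Adipoq, on the left for air and then naphthalene from 0.5 to 30 ppm, and on the right for propylene glycol mono-t-butyl ether (PGBE), vanadium pentoxide (VANP) and the air sets ACO3, ACO4 and ACO5. Cidea lies between 0.33 and 1.14 at 10 to 30 ppm, and PGBE and VANP arrays lie beside 3 of the 4 ACO3 arrays.

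Propylene glycol mono-t-butyl ether, a solvent, and vanadium pentoxide, inhaled as particles, had the lowest fold changes of Adipoq, Retn, Cidea and Ucp1 among the 34 groups. All 6 genes were below the mean of the air sets in both, with medians over the 6 of -0.72 and -0.71, beside 0.07 and -0.01 over all genes. The medians were -0.47 and -0.44 without ACO3 replicate 4, with 4 and 6 of 6 genes below. These 2 groups and the naphthalene groups share the same air controls. Cidea was -0.38, -0.96, -0.88 and -0.88 with the solvent and -0.75, -0.75, -0.60 and -0.65 with vanadium pentoxide. It was -0.82, -0.67, -0.30 and 2.17 in ACO3, 0.22, 0.18, 0.06, 0.34 and -0.16 in ACO4, and 0.08, 0.26, -0.12, -0.02 and 0.25 in ACO5. Both exposed groups lay below every ACO4 and ACO5 array but overlapped ACO3. Cidea fell by 0.88 ± 0.16 with the solvent (1.84-fold lower, adjusted p = 0.00782, limma) and by 0.79 ± 0.16 with vanadium pentoxide (1.73-fold lower, adjusted p = 0.00302), where 0.0592% and 1.31% of all genes were called down. Neither call held without ACO3 replicate 4: against the other 3 ACO3 arrays the difference was -0.18 ± 0.15 for the solvent (adjusted p = 0.696) and -0.09 ± 0.15 for vanadium pentoxide (adjusted p = 0.901), while those from ACO4 were -0.90 and -0.81 with all arrays kept. Fitted on the arrays of each contrast alone, neither was called (adjusted p = 0.298 and 0.390, limma). The labels give the dose of ACO3 in mg/m3, the unit of vanadium pentoxide, and those of ACO4 and ACO5 in ppm. They do not say which air set was run beside which chemical. In the array titles, the animal numbers of both exposed groups lie nearer to those of ACO3 than of ACO4 or ACO5.

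Adipoq was 0.56, -1.91, -1.44 and -1.58 with the solvent and -1.21, -0.94, -0.84 and -1.25 with vanadium pentoxide. It was -1.56, -0.72, 0.04 and 2.98 in ACO3, 0.86, 1.64, 0.69, 1.21 and -0.27 in ACO4, and 0.59, 1.22, -0.35, 0.83 and 1.84 in ACO5. All vanadium pentoxide arrays and 3 of the 4 solvent arrays lay below every ACO4 and ACO5 array, and solvent replicate 1 lay among them. The differences from the mean of the air sets were -1.70 ± 0.47 for the solvent (adjusted p = 0.227, limma) and -1.67 ± 0.47 for vanadium pentoxide (adjusted p = 0.242), neither called. Without ACO3 replicate 4 they were -1.39 and -1.36. Against ACO3 alone, without replicate 4, they were -0.34 ± 0.60 (adjusted p = 0.873, limma) and -0.31 ± 0.60 (adjusted p = 0.925). Retn was 0.58, -0.14, -0.07 and -0.13 with the solvent, -0.14, 0.11, 0.10 and -0.01 with vanadium pentoxide, and -0.13, 0.06, 0.45 and 2.55 in ACO3. Its differences were -0.77 ± 0.22 (adjusted p = 0.172, limma) and -0.81 ± 0.22 (adjusted p = 0.102), not called, and that of vanadium pentoxide was called without ACO3 replicate 1 or 2. They were -0.57 and -0.61 without ACO3 replicate 4, not called. Against ACO3 alone, without replicate 4, they were -0.07 (adjusted p = 0.950, limma) and -0.11 (adjusted p = 0.942). Ucp1 was -1.14, -1.19, -1.32 and -1.23 with the solvent, -1.28, -1.06, -1.25 and -1.09 with vanadium pentoxide, and -1.36, -1.10, -1.02 and 2.54 in ACO3. Its differences of -0.68 ± 0.18 (adjusted p = 0.156, limma) and -0.62 ± 0.18 (adjusted p = 0.285) were not called, and against ACO3 without replicate 4 they were -0.06 and -0.01. Against the mean of the air sets alone, Adipoq, Retn and Ucp1 were called down in both groups (adjusted p from 0.00461 to 0.0129, limma). Cidec (-0.04 and -0.17) and Pck1 (-0.07 and -0.40) were not called by either rule. They were 0.11 and -0.03 for Cidec and 0.06 and -0.27 for Pck1 without ACO3 replicate 4.

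Of the 10 lowest arrays of the series, those of the solvent, vanadium pentoxide and ACO3, 12 in all, held 9 for Cidea, 9 for Ucp1, 7 for Adipoq, 4 for Retn, 1 for Pck1 and 0 for Cidec. The mean over 11 heart muscle genes ran from 0.02 to 1.88 with the solvent and from 0.36 to 0.78 with vanadium pentoxide, against 0.48 to 3.04 in ACO3, 0.89 to 1.52 in ACO4 and 0.76 to 2.16 in ACO5. Solvent replicate 1, the group's highest array for each of the 6 genes, was also its highest for this list. By limma 0 of the 11 genes were called in either group, 3 with the solvent and 0 with vanadium pentoxide passed an unadjusted p under 0.05, beside 11.1% and 10.3% of all genes, and their part in the fat gene values was not tested.

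With vanadium pentoxide limma called 3 of 25 white adipose genes up and 2 down, in a contrast with 3.02% of all genes up and 1.31% down, and the list's median was -0.15. Nnat, neuronatin, rose by 0.95 ± 0.11 (adjusted p = 1.95e-06), Scd1 by 0.81 ± 0.12 (4.56e-05) and Cebpa, a fat cell and lung transcription factor, by 0.57 ± 0.12 (0.0272). Thrsp, a lipogenic nuclear protein, fell by 1.37 ± 0.34 (adjusted p = 0.0381, limma) and G0s2, an inhibitor of fat breakdown, by 0.65 ± 0.15 (adjusted p = 0.0324). Of 11 brown adipose genes 2 fell, the muscle and brown fat respiratory subunits Cox8b (-1.03 ± 0.19, adjusted p = 0.00394, limma) and Cox7a1 (-0.81 ± 0.20, adjusted p = 0.0372). Of 8 PPAR target and fasting genes Pdk4, which spares glucose, fell by 0.68 ± 0.18 (adjusted p = 0.0452, limma). Without ACO3 replicate 4 the calls of Thrsp, Cox8b, Cox7a1, Pdk4 and Cldn18 were lost (-1.02, -0.81, -0.65, -0.59 and 0.49), those of Nnat, Scd1, Cebpa and G0s2 were kept, and Pparg was called up as well. In the same arrays limma called 2 of 6 macrophage genes, Cd68 (0.94 ± 0.14) and Chil3 (0.89 ± 0.16), both up. Of 10 lung epithelial genes 2 were called, the alveolar genes Sftpd (0.53 ± 0.10) and Cldn18 (0.53 ± 0.12), both up. Of 7 mesothelial genes 1, Upk1b, fell by 0.63 ± 0.12. The part of other cell types in these values was not tested. With the solvent 0 genes of these lists were called by limma, where 0.614% of all genes rose and 0.0592% fell. At an unadjusted p under 0.05 there were 3 white adipose, 1 brown adipose, 0 PPAR target, 3 lung epithelial, 3 macrophage and 2 mesothelial genes, beside 11.1% of all genes.

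In the remaining 32 groups no gene but Cidea was called. Adipoq ran from -0.49 to 0.75, highest with 1-amino-2,4-dibromoanthraquinone, at 1.33, 1.34, 1.92 and 2.27 against 0.90, 1.56, -0.10 and 1.52 in its chow controls (0.75 ± 0.58, adjusted p = 0.556, limma). Retn ran from -0.39 to 0.26, Cidec from -0.37 to 0.18 and Pck1 from -0.45 to 0.45. Ucp1 ran from -0.31 to 0.37, highest with iodoform, at -0.47, 0.45, -0.31 and 0.06 against -0.06, -0.48, -0.63 and -0.56 in its corn oil controls (adjusted p = 0.195, limma), a difference called once ACO3 replicate 4, an array of another batch, was left out of the shared spread. Coumarin gave Cidea values of 0.16, 0.77, 0.55 and 0.39, above all corn oil controls of CCO2 (-0.03, 0.09, -0.28 and 0.14) and CCO3 (-0.12, -0.33, 0.00 and -0.09). Its change of 0.55 ± 0.17 was not called (adjusted p = 0.0775, limma), where 4.06% of all genes were called up, but was called without ACO3 replicate 4 (adjusted p = 0.0115). It was also called after quantile normalization (0.65, adjusted p = 0.0253, limma), with arrays of its batch alone (0.0289) and without its own replicate 1 (0.0317). Of 19 alternatives, which do not include leaving out ACO3 replicate 4, 16 left it uncalled. Among these 16 was the fit on the arrays of the contrast alone (adjusted p = 0.303, limma). The fold changes are drawn in the map of the 34 groups.

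Control sets of one vehicle and batch gave 0 of 30 calls for the 6 genes by limma, where 0.00592% of all tests passed. At an unadjusted p under 0.05, 3 of the 30 passed, beside 3.12% of all tests. They were Cidec in ACO3 minus ACO4 (0.35) and ACO3 minus ACO5 (0.30), and Ucp1 in ACO3 minus ACO5 (0.52). Without ACO3 replicate 4 these differences were -0.10, -0.14 and -0.40. Over the sets within batches, an F test in limma called 0 of 6 genes (0 at an unadjusted p under 0.05), beside 0.14% of all genes. Cidea means of the air sets were 0.10 in ACO3, 0.13 in ACO4 and 0.09 in ACO5, although the SD within ACO3 was 1.40 (n = 4). Without ACO3 replicate 4, 2 of 30 were called, both Cidea, which was lower in ACO3 than in ACO4 (-0.72 ± 0.14, adjusted p = 0.00463, limma) and ACO5 (-0.68 ± 0.14, adjusted p = 0.0156), where 0.0118% of all tests passed. Adipoq (-1.57 and -1.57), Retn (-0.66 and -0.84) and Ucp1 (-0.52 and -0.40) were then lower in ACO3 too, not called. Cidec differed by -0.10 and -0.14 and Pck1 by -0.22 and 0.07, not called either.

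Within control sets the fat genes varied together and more than most genes. The pooled SD of Adipoq was 0.77 in exposed groups and 0.95 in control sets, above 99.9% of 13524 genes in both, beside medians over all genes of 0.14 and 0.17. Retn (0.33 in exposed groups and 0.48 in control sets) and Pck1 (0.37 and 0.53) lay above 98.6% or more of genes in both. Cidea (0.19 in exposed groups and 0.41 in control sets), Cidec (0.19 and 0.30) and Ucp1 (0.17 and 0.51) lay above 80.6%, 82.0% and 70.9% of genes in exposed groups. Without ACO3 replicate 4 their control SDs were 0.20, 0.19 and 0.16, at percentiles 64.0, 61.7 and 47.7 of all genes.

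Deviations from the set mean were correlated over the 58 control arrays for the 15 pairs of the 6 genes, with 100000 permutations within sets. All 15 were positive, from 0.39 to 0.96 with a median of 0.75, and 14 passed an adjusted permutation p under 0.05 by Pearson's r and 13 by Spearman's rho. Without ACO3 replicate 4 the 15 ran from 0.11 to 0.96 with a median of 0.54, and 13 passed by either measure. For all tested genes in the 58 arrays, the 99th percentile of r with each of the 6 genes lay between 0.44 (Ucp1) and 0.58 (Retn). The share of all gene pairs that passed was not computed. Over all 58 arrays, Adipoq and Retn gave r = 0.96 and rho = 0.96 (permutation p = 1e-05, the smallest these permutations can give, adjusted 1.87e-05 for r and 3.75e-05 for rho). Without the 2 arrays farthest from the median of Adipoq r was again 0.96, within the batches it lay between 0.96 and 0.98, and in the exposed arrays it was 0.95. Cidea and Ucp1 gave r = 0.93 and rho = 0.69 (permutation p = 1e-05 each), a Pearson value that dropped to 0.62 without the 2 farthest arrays and to 0.63 without ACO3 replicate 4, and was 0.40 in the exposed arrays. Cidec and Ucp1 (r = 0.78, rho = 0.32, permutation p = 0.0129 and 0.0481, adjusted 0.0139 and 0.0515) rested on that array: without it r was 0.22 (adjusted permutation p = 0.108). Ucp1 and Pck1 were the least alike (r = 0.39, rho = 0.27, permutation p = 0.0595 and 0.0847). In the exposed arrays all 15 were positive too, from 0.02 to 0.95 with a median of 0.55, and 11 passed. Within batches, 10 of 15 passed in the 24 control arrays of RSTLRI000, 10 in the 16 of RSTLRI601, where 1 pair was at -0.04, and 8 in the 12 of HON07, while the 6 of IMFGN gave r from 0.87 to 0.98 with no test.

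**Figure D4:**
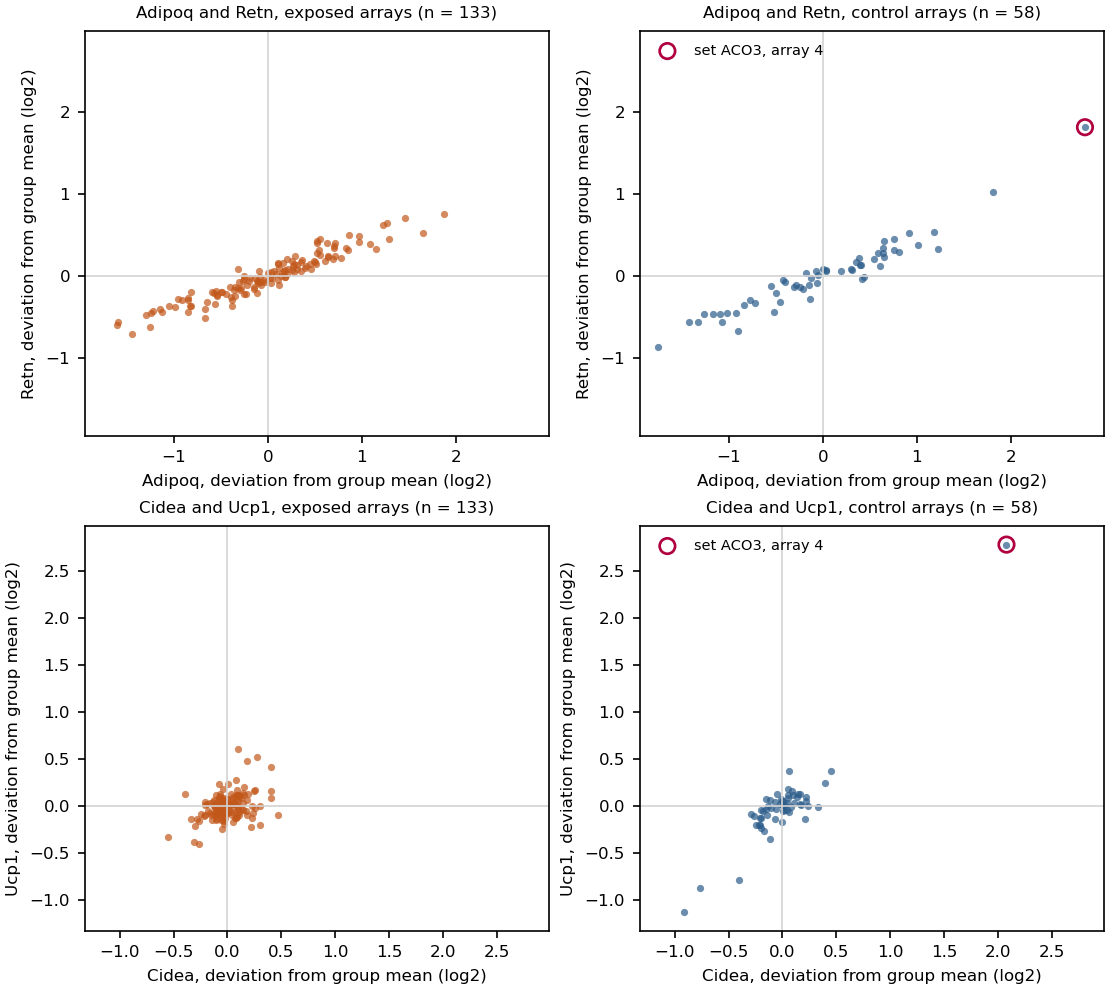
Deviation from the group mean (log2, both axes) of Retn against Adipoq and of Ucp1 against Cidea, 1 point per array, exposed arrays left and control arrays right. Adipoq and Retn lie along a line in both (r = 0.95 and 0.96), while for Cidea and Ucp1 ACO3 replicate 4 lies far from the other control arrays.

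The genes whose deviations over all arrays were most like those of Adipoq were Fabp4 (r = 0.94), a fatty acid carrier of fat cells and macrophages, Tmem45b (0.89), Car3 (0.87), an abundant carbonic anhydrase of fat and muscle, Plin4 (0.84), a droplet coat protein, and Mb (0.83), the oxygen store of muscle. Thrsp (0.82), the amine oxidase Aoc3 (0.81), the lectin Reg3g (0.80), adipogenin Adig (0.80) and the atrial peptide Nppa (0.79) followed. Over 13518 genes the median was -0.03 and the 99th percentile 0.49. Retn was most like Tmem45b (0.92), Fabp4 (0.92) and Thrsp (0.88), Cidea like Adig (0.86), Tmem45b (0.83) and Thrsp (0.82), and Cidec like Fabp4 (0.75), Cox8b (0.75) and Tmem45b (0.74). Ucp1 was nearest to Elovl6 (0.80), Adig (0.71) and Mrap (0.70), but without ACO3 replicate 4 these were 0.41, 0.45 and 0.48. Pck1 was nearest to Ephx2 (0.85), Cyp2e1 (0.80) and Orm1 (0.77), genes best known from liver. These points share arrays and normalization, and the values describe likeness only.

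Of the tissue lists, likeness to Adipoq was not spread over all fat genes. In the white adipose list 8 of 25 genes had r over 0.5, with a median of 0.22 and a range from -0.19 (G0s2) to 0.94 (Fabp4), and in the brown adipose list 3 of 11 did, with a median of 0.13 and Cox8b highest at 0.75. All 11 heart muscle genes had r over 0.5, from 0.66 to 0.79 with a median of 0.71, also without ACO3 replicate 4 (median 0.69). Of 6 skeletal muscle genes 2 did, of 6 macrophage genes only Fabp4, and of 8 PPAR target and fasting genes and 10 lung epithelial genes 0, the last with a median of -0.11. What part tissue beside the lung had in these values was not tested.

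**Figure D5:**
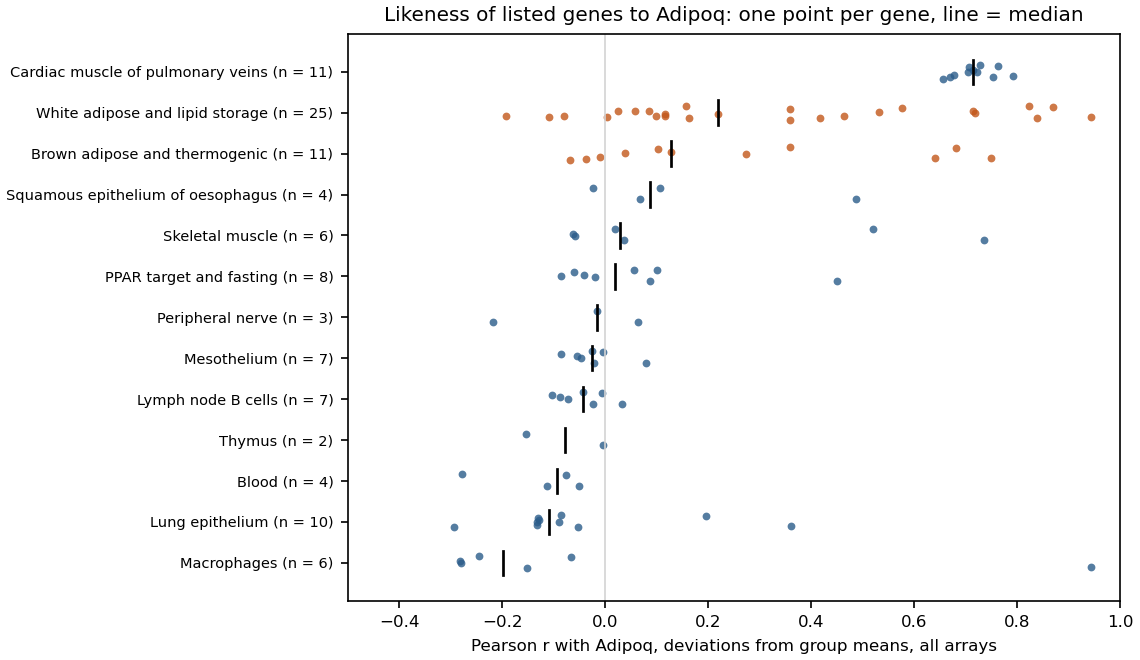
Pearson r of each listed gene's deviations with those of Adipoq over all arrays (horizontal axis), 1 point per gene, by list. All 11 heart muscle genes lie between 0.66 and 0.79, white adipose genes spread from -0.19 to 0.94, and lung epithelial genes lie between -0.29 and 0.36.

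For Pck1 the annotation gave 3 probe sets of its own. The brightest, used here, and another correlated at 0.79 over all arrays, whereas the third correlated at -0.15 and 0.12 with them and lay above the median of all values on 0 arrays. With the mean of all 3, the control SD of Pck1 was 0.25 in place of 0.53. In the naphthalene series the second probe set rose by a fitted 0.26 ± 0.08 (SE, n = 20, adjusted p = 0.0172, limma), whereas the brightest changed by -0.13 ± 0.19 (adjusted p = 0.602).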

How the data were processed

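Biotin-labelled lung RNA was hybridised to Affymetrix mouse arrays, per the labels' protocols. Deposited values are logarithmic and were read as log2. Their base and the authors' normalization are not given in the sources used here, and every fold rests on base 2. Values ran from -2.33 to 8.14, and array means from -0.00269 to 0.00334. The number of arrays limits the precision.

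The array annotation gave 1 symbol to 34958 of 45101 probe sets, several to 932 and none to 9211, and a current name was found for 34754. Where a gene had several probe sets, the one with the highest mean was used. A group-means model over all arrays was fitted with limma 3.58.1 in R 4.3.3, and an exposed group was compared with each control set that shared its vehicle and array batch, since the labels pair none. Fold changes are against the mean of the set means, and the adjusted p is the largest over them. Trends used exposed arrays and linear concentration. Malathion's dose follows its protocol (14800 ppm), its title giving 16000.

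The genes and lists were chosen with earlier results of these data known. Named genes were the 9, the 10 most like Adipoq and 3 most like each other gene, and called genes of the lists, up to 4 each, in contrasts with a called gene of the 9. Promoters were searched with Python 3.11.15. Alternatives were quantile normalization, no filter, other uses of probe sets, arrays and control sets, a minimum RNA integrity number of 7 (32 arrays have none), log10 concentration, air at 0 ppm and each array left out. Leaving out ACO3 replicate 4 in the other results was added after seeing the data. The code was tested on simulated data.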

Additional observations from a re-analysis of the deposited data

Results flagged for a closer look

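Of 252 combinations of a gene and a group of 4 or 5 arrays (42 groups, 6 tested genes), 20 had 1 array far from the others of its group, 15 high and 5 low. The rule is set to flag about 1 in 20 by chance. It was run on these 6 genes alone, which vary together on the same arrays, so the counts have no comparison over all genes. For Adipoq these were replicate 1 with iodoform (-0.81), replicate 4 with naphthalene at 10 ppm (1.01) and replicate 2 of the distilled water controls WCO1 (-0.60). For Retn they were replicate 2 with benzene (0.91), replicate 1 with iodoform (0.0372), replicate 3 with methylene chloride at 500 ppm (0.97) and replicate 1 with propylene glycol mono-t-butyl ether (0.58). For Cidea they were replicate 2 with benzene (-0.0771), replicate 3 with 1,4-dichlorobenzene (0.0660) and replicate 1 with propylene glycol mono-t-butyl ether (-0.38). For Cidec they were replicate 2 with benzene (0.48), replicate 3 with 1,4-dichlorobenzene (0.10), replicate 4 with tetrafluoroethylene (0.13), ACO3 replicate 4 (1.68) and replicate 1 of the chow controls FCO1 (0.34). For Ucp1 they were replicate 4 with 2-chloromethylpyridine hydrochloride (-0.65), replicate 1 with methylene chloride at 100 ppm (-0.24), replicate 4 with naphthalene at 0.5 ppm (-0.23) and ACO3 replicate 4 (2.54). For Pck1 it was replicate 3 with methylene chloride at 3000 ppm (-0.18). Benzene replicate 2 stood apart for Retn, Cidea and Cidec together, and its Adipoq value of 1.80 compared with -0.92, -0.19 and -0.99 in the other 3.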

How the results depend on the processing

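No called fold change turned sign, but uncalled ones did without ACO3 replicate 4. Among them were Cidec (0.11) and Pck1 (0.06) with propylene glycol mono-t-butyl ether, and Ucp1 in ACO3 minus ACO4 (-0.52, against 0.40). The 4 calls of exposed groups became 12 against the mean of the control sets alone and lay between 2 and 5 with each array left out (2 without ACO3 replicate 3, 5 without ACO3 replicate 4). They were 5 after quantile normalization, where 4.54% of all tests passed against 2.58%, and 5 with arrays of the same batch, both adding Cidea with coumarin. They were 5 with no filter, adding the dim Lep, lower with 1,2,3-trichloropropane (-0.19, adjusted p = 0.0363, limma), where 2.35% of all tests passed. Without arrays of an RNA integrity number under 7 they were 3. Cidea was then no longer called at 20 ppm (0.60, adjusted p = 0.324, limma) or 30 ppm (0.67, adjusted p = 0.218) of naphthalene, and Retn was called with vanadium pentoxide. The share of all tests was not taken for the RNA integrity and same-batch settings. With the arrays of a contrast alone, which leaves fewer arrays, Cidea was called in none of its 4 groups (adjusted p from 0.298 to 0.482, limma). The naphthalene trend gave 1 call on log10 concentration, 1 with air at 0 ppm, 3 with each probe set by itself (adding the second Pck1 probe set) and 1 to 2 with each array left out, against 2. Of 13524 genes, 6342 passed on log10 concentration and 4030 with air at 0 ppm, against 5519. The F test over control sets gave 0 to 0 with each array left out, and pairs of control sets 0 to 2. Within HON07, 8 gene pairs passed, against 14. No paired analysis was possible because replicate numbers follow accession order only. The causes were not tested. Signal over background is not in the deposited values, and the dim genes Ucp1 and Lep are limited most.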
